A study of Mus musculus with 25 samples.

Results

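Achilles tendons of wheel-running mice with a conditional knockout of AMPK were compared with those of wild-type (WT) runners. The libraries were chosen by their titles, which name the genotype AMPKcKO (a conditional knockout, written cKO) or Wildtype together with wheel running, and this gave 12 of the 25 libraries in the series. The 6 WT runners were 3 females and 3 males, and so were the 6 cKO runners. All mice were 3 months old, as the design text of the series says. The other 13 libraries came from mice of both genotypes at cage activity (7 WT and 6 cKO). They entered the fit, where they shared in the gene filter, the scaling, the spread, the sex term and any covariate. They also gave the sedentary result that is set beside the running one. Neither Cre nor eGFP had a count in the cage library whose title gives cKO female replicate 3, which goes against its label, and the cage values printed here that move by over 1.5 times or change sign without it are given both ways. Of the other 5 cKO cage libraries, all with Cre counts, 3 had eGFP at 1.28 to 2.54 CPM and 2 at 131 to 160.2 CPM. Per the title of the series the gene lost is AMPKα1, that is Prkaa1. The Cre driver, the exons removed and the source of the reporter genes are not given in the sources used here, and nothing in the labels says that tendons were pooled. Replicates are samples that the titles number separately, and p-values measure the spread between those samples.

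AMPK is a kinase of 3 subunits that senses a falling energy charge. The catalytic α subunits (Prkaa1, Prkaa2) are held with a scaffolding β subunit (Prkab1, Prkab2) and an AMP-binding γ subunit (Prkag1 to Prkag3), and the complex is switched on by the kinases LKB1 (Stk11) and CaMKK2. Active AMPK favours fatty acid oxidation, mitochondrial upkeep and autophagy, and restrains lipid and protein synthesis. Tendon is a collagen-rich tissue with few cells, chiefly tenocytes, along with vessels, nerve, immune cells and, near the muscle junction, fibres of the adjoining muscle.

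Between 15397565 and 32942246 counts were assigned to genes in the 12 runner libraries. Levels are given in CPM, counts scaled to one common library size. The tendon genes Tnmd (tenomodulin, 15.3 to 64.1 CPM), Mkx (11.7 to 28.0 CPM), Dcn (decorin, 604 to 2364 CPM) and Comp (266 to 776 CPM) were detected in every one. Muscle was present as well, since 30 fast-fibre and 15 slow-fibre genes held 5.99% to 11.3% (median 9.08%) of the counts in WT runners and 2.44% to 9.30% (median 6.05%) in cKO runners. WT female replicate 2 had the fewest genes with a count (20006, against 23266 to 31333 in the others). It lay at -113 on the first principal component of log2 CPM, WT male replicate 3 lay at 119 on the second, and cKO male replicate 2 lay at 73.0 on the first. The reporter eGFP had 59.9 to 209 CPM in all 6 cKO runners and 0 counts in 5 of the 6 WT runners, but 113 CPM (2731 counts) in WT male replicate 2, where the Cre entry was 0. Cre had 7 to 32 counts in each cKO runner and 0 in each WT runner. Mitochondrial ribosomal RNA took 13.9% (cKO male replicate 2) to 28.7% of the counts. Of the 99 genes followed here, 62 had their highest or lowest value of the 12 runners in cKO male replicate 2, 40 in WT male replicate 1, and 26 each in WT female replicate 2 and cKO female replicate 4.

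No gene passed the test between the genotypes in runners. By edgeR's quasi-likelihood test with Benjamini-Hochberg adjustment, 0 of 19155 genes had an adjusted p under 0.05 (0%), and the smallest adjusted p was 0.363. DESeq2 and limma-voom also called 0. At an unadjusted p under 0.05 there were 1248 genes higher in cKO (6.52%) and 925 lower (4.83%), or 11.3% in all. On log2(FPKM + 1) that split moved to 1805 higher and 465 lower, and the median fold change of all genes moved from 0.01 to 0.12. At cage activity 217 genes (1.13%) were at that level, and 208 without cKO cage female replicate 3. In runners the number was 404 (2.11%) with the presence of eGFP as a covariate and 1290 (6.73%) with the mean log2 CPM of the muscle fibre genes, called muscle content below, as a covariate. Among runners, eGFP was above 10 CPM in every cKO library and, of the WT libraries, in WT male replicate 2 alone. Among runners the eGFP covariate thus nearly repeats the genotype. The fit took all 25 libraries, and among cKO cage libraries eGFP was above 10 CPM only in female replicate 1 and male replicate 1. How far that fit tells eGFP from genotype therefore rests largely on cage libraries and on WT male replicate 2. The part of each was not tested. Without cKO male replicate 2 the runner counts were 688 higher and 411 lower (5.68% in all). The count of lower genes was 1543 without WT male replicate 3 and 1491 without cKO female replicate 3. Without 4 libraries (WT female replicate 2, WT male replicates 2 and 3, and cKO male replicate 2) they were 1020 and 1123. Counts of list members at an unadjusted p under 0.05 are to be read beside 6.52% of all genes for higher and 4.83% for lower. Fold changes below are therefore values of genes that did not pass the adjusted test, on the log2 scale as cKO minus WT, with the standard error after the ± sign.

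The targeted gene was measured in every library. Prkaa1, on chromosome 15 at 5143861-5181899 of GRCm38 on the plus strand, ran from 15.6 to 31.1 CPM (median 23.4) in the WT runners and from 16.2 to 22.6 CPM (median 18.6) in the cKO runners. The cKO libraries lay in the lower part of the WT range and the groups overlapped. Its fold change was -0.32 ± 0.17 (edgeR adjusted p = 0.464), beside -0.41 ± 0.16 at cage activity, and it was 0.04 without the 4 libraries named above. The count covers the whole gene, and a tendon holds cells in which the gene may not have been targeted, so the value is a level in the tissue and not in tenocytes. Prkaa2, the other catalytic subunit and the one abundant in muscle, ran from 33.7 to 166 CPM (median 82.2) in the WT runners and from 27.7 to 83.5 CPM (median 59.4) in the cKO runners, a difference of -0.58 ± 0.33 that was -0.01 with muscle content as a covariate. Of the other AMPK genes, 3 had an unadjusted p under 0.05, all higher in cKO, and 1 did without cKO male replicate 2. The scaffold Prkab1 stood at 8.33 against 10.4 CPM (WT and cKO medians), a difference of 0.34 ± 0.14. The regulatory subunit Prkag2 stood at 24.1 against 29.0 CPM (0.41 ± 0.17, 0.23 without cKO male replicate 2) and the upstream kinase Camkk2 at 26.5 against 32.5 CPM (0.41 ± 0.19). Over the 15 subunits and upstream kinases, 5 were above 0 and 10 below, with 3 higher and 0 lower at an unadjusted p under 0.05 and a median of -0.16. Of 28 genes whose products AMPK phosphorylates or which act just downstream, 1 was higher and 2 lower at that level (median -0.05).

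Scx and Bop1, which share a locus, stood higher in every cKO runner than in any WT runner. Scx encodes scleraxis, the transcription factor that marks the tendon lineage, and lies on chromosome 15 at 76457452-76459458 on the plus strand. Bop1, a ribosome biogenesis factor, lies on the minus strand at 76452989-76477277, and Scx sits wholly inside an intron of the 1 annotated Bop1 transcript that spans it. The strand of the libraries is not given in the sources used here, so reads of these overlapping genes cannot be told apart with certainty. Scx stood at 11.5 to 20.6 CPM in 5 WT runners, at 105 CPM in WT male replicate 2, and at 112 to 208 CPM (median 155) in the cKO runners. Bop1 stood at 10.9 to 16.6 CPM in the same 5 WT runners, at 152 CPM in WT male replicate 2, and at 186 to 564 CPM (median 370.2) in cKO. For both genes all 6 cKO runners lay above all 6 WT runners, as they did for 0.282% of the genes tested.

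The difference was 2.36 ± 0.53 for Scx and 3.42 ± 0.76 for Bop1, each with an edgeR adjusted p of 0.363. The call in this fit depended on WT male replicate 2. Without it the values were 3.23 ± 0.47 and 4.74 ± 0.71, each with an edgeR adjusted p of 0.00527, and these were the 2 genes called of 19501 (0.0103%). Without the 4 libraries named above, that one among them, the values were 3.02 and 4.59 and 0 genes were called. WT male replicate 2 is also the WT runner with eGFP counts. With the presence of eGFP (above or below 10 CPM) as a covariate, the differences were 0.65 and 1.10 with an edgeR adjusted p of 1.00. The part of the transgenes in these counts was not tested. At cage activity the values were 1.29 ± 0.49 and 2.91 ± 0.70, with widely spread cKO libraries. There the mean of Scx was 25.5 CPM in WT (standard deviation 9.83) and 62.1 CPM in cKO (standard deviation 57.6). That of Bop1 was 12.5 CPM in WT (standard deviation 2.26) and 91.8 CPM in cKO (standard deviation 125).

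**Figure D1:**
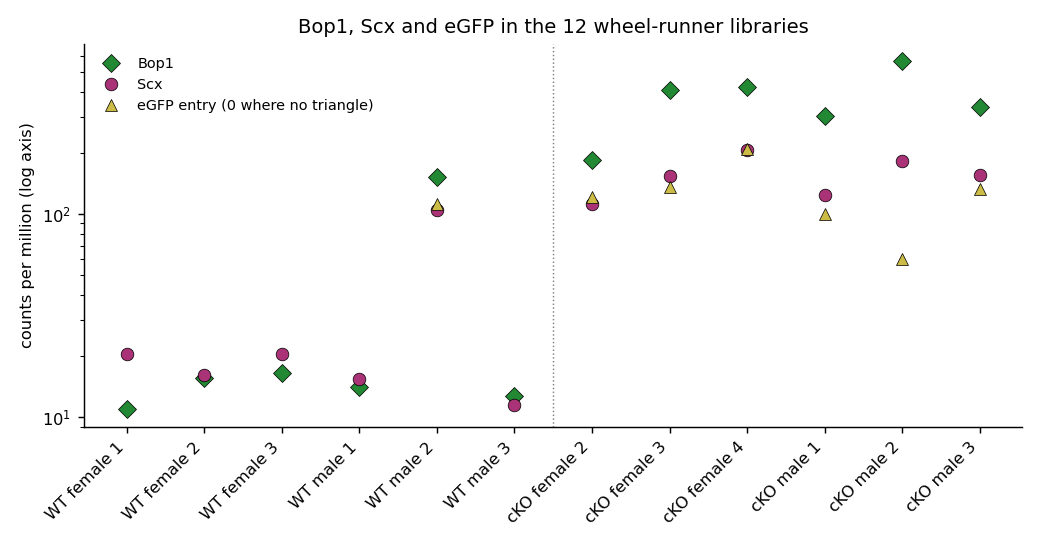
CPM (log axis) of Bop1 (diamonds), Scx (circles) and the eGFP entry (triangles, drawn only where above 0) in each of the 12 runner libraries, WT left of the dotted line and cKO right of it. WT male replicate 2, at 105 CPM for Scx and 152 CPM for Bop1, is the WT library with eGFP (113 CPM) and stands next to the cKO runners.

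Beyond that locus, tendon identity genes gave no common direction. Of 25 tenocyte genes 13 were above 0 and 12 below, and the 2 with an unadjusted p under 0.05, beside 6.52% of all genes, were Scx and Egr2, an early growth response factor that acts in tendon and in Schwann cells. Egr2 ran from 0.583 to 2.89 CPM (median 1.18) in the WT runners and from 1.31 to 9.45 CPM (median 2.58) in the cKO runners, a difference of 1.29 ± 0.45 that was 0.28 with the eGFP covariate. The 9.45 CPM was in cKO female replicate 4, the runner with the largest share of Schwann cell genes (0.248%). Without that library the difference was 0.80. Mkx (mohawk), another transcription factor of tenocytes, stood at 18.6 against 23.4 CPM with a difference of 0.24 ± 0.21. The list's median was 0.00.

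Among the other genes with the smallest p-values, most differences were below 1 on the log2 scale. Snx18, a sorting nexin that remodels membranes, ran from 23.2 to 31.3 CPM (median 26.6) in the WT runners and from 32.1 to 49.2 CPM (median 39.3) in the cKO runners, and no cKO library reached down to the WT range (0.56 ± 0.13). Iqce, a ciliary protein of Hedgehog signalling, ran from 9.95 to 12.8 CPM (median 10.7) in the WT runners and from 12.8 to 21.2 CPM (median 16.0) in the cKO runners (0.57 ± 0.14). Mapk8ip1, the JNK scaffold JIP1, ran from 6.54 to 9.59 CPM (median 8.70) in the WT runners and from 10.2 to 29.0 CPM (median 14.5) in the cKO runners (0.92 ± 0.22). Fam83h, a keratin-associated protein, ran from 0.714 to 1.57 CPM (median 1.29) in the WT runners and from 1.73 to 7.39 CPM (median 2.48) in the cKO runners (1.36 ± 0.32). Its highest value was in cKO male replicate 2, and the difference was 0.93 without that library. In these 4 genes every cKO runner lay above every WT runner, though by narrow margins, the smallest in Iqce (12.81 against 12.85 CPM). The protocadherin Pcdh7 (20.4 against 32.7 CPM, 0.61 ± 0.14), the retinoic acid enzyme Aldh1a2 (1.13 against 3.09 CPM, 1.32 ± 0.30) and the transcriptional repressor Hic1 (14.4 against 21.3 CPM, 0.79 ± 0.19) had overlapping groups. The same was true of Oaf (0.63 ± 0.15), Efcc1 (1.15 ± 0.28), the synaptic scaffold Magi2 (0.87 ± 0.22) and the imprinted long non-coding RNA Meg3 (0.61 ± 0.15). The edgeR adjusted p was 0.363 for each of these 11 genes. Without cKO male replicate 2 all their differences were smaller but that of Mapk8ip1 (0.96). Hic1 stood at 0.56, Efcc1 at 0.91 and Meg3 at 0.46. Mapk8ip1 was highest in cKO female replicate 4 (29.0 CPM), and its difference was 0.72 without that library.

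On the lower side, Thrb encodes the thyroid hormone receptor beta and lies on chromosome 14. It ran from 21.3 to 31.5 CPM (median 22.5) in the WT runners and from 16.1 to 18.8 CPM (median 17.2) in the cKO runners, so that every cKO runner lay below every WT runner, as in 0.094% of genes, and the difference was -0.51 ± 0.13. On the deposited FPKM values the sign was not kept. The medians were 9.81 FPKM in WT and 9.69 in cKO, and the fitted difference was 0.07 on log2(FPKM + 1), where the median gene stood at 0.12. Siah2, a ubiquitin ligase, ran from 8.58 to 13.3 CPM (median 10.3) in the WT runners and from 4.17 to 8.71 CPM (median 7.06) in the cKO runners (-0.67 ± 0.15). Its relative Siah1a went the other way, with 6.23 against 8.88 CPM and no overlap (0.70 ± 0.18), although its near-identical copy Siah1b could share reads with it. Hagh, the glyoxalase that clears S-lactoylglutathione, ran from 10.5 to 20.6 CPM (median 16.0) in the WT runners and from 6.09 to 12.4 CPM (median 9.79) in the cKO runners (-0.69 ± 0.18). Cox15, which makes the haem A of cytochrome oxidase, ran from 17.1 to 24.0 CPM (median 20.8) in the WT runners and from 13.5 to 17.7 CPM (median 15.3) in the cKO runners (-0.43 ± 0.12). The glucose-6-phosphatase G6pc3 (-0.57 ± 0.16), Commd6 (-0.74 ± 0.20), Fam118b (-0.48 ± 0.13), the ER-to-Golgi protein Yif1a (-0.51 ± 0.14), Kctd15 (-0.46 ± 0.14), Fads6 (-0.57 ± 0.18), Ptges3l (-0.90 ± 0.27), the BMP and Nodal antagonist Dand5 (-0.78 ± 0.23) and the non-coding RNA Snhg14 (-0.92 ± 0.27) were lower with overlapping groups. The edgeR adjusted p of the lower genes named here lay between 0.363 and 0.387.

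**Figure D2:**
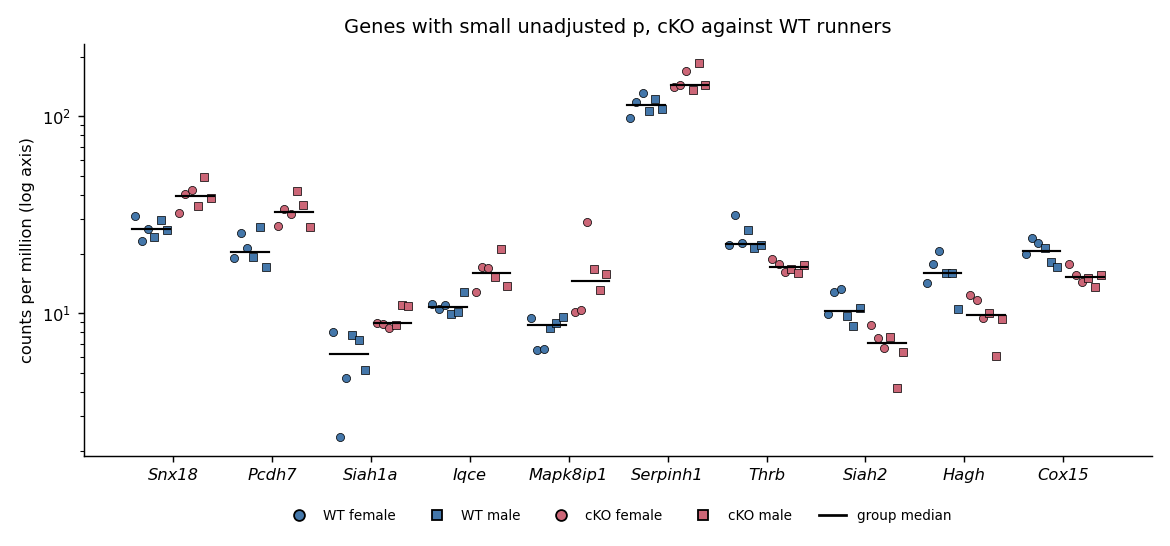
CPM (log axis) of 10 genes in each runner library, WT in blue and cKO in red, females as circles and males as squares, with a black bar at each group's median. Snx18, Siah1a, Iqce, Mapk8ip1 and Serpinh1 are higher and Thrb is lower in cKO with no overlap of the 6 libraries of each group, while Pcdh7, Siah2, Hagh and Cox15 overlap.

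H19, an imprinted non-coding RNA whose gene neighbours that of the growth factor Igf2, ran from 286 to 1035 CPM (median 585) in the WT runners and from 57.2 to 472 CPM (median 318) in the cKO runners, and cKO male replicate 2 held the lowest value (-1.16 ± 0.34, -0.93 without that library). Igf2 ran from 31.1 to 60.3 CPM (median 39.7) in the WT runners and from 24.8 to 36.0 CPM (median 27.6) in the cKO runners (-0.53 ± 0.17). With muscle content as a covariate the difference was -0.74 for H19 and -0.53 for Igf2. At cage activity the differences were 0.11 ± 0.32 and 0.04 ± 0.16 (0.17 and -0.02 without cKO cage female replicate 3).

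Most collagen genes stood higher in cKO runners, each by a small amount. Of 45 genes for fibrillar collagens and their assembly 39 were above 0, beside 51.3% of all genes tested, and 7 of them (0 lower) had an unadjusted p under 0.05, beside 6.52% of all genes. The 7 became 3 without cKO male replicate 2, 3 with the muscle covariate and 1 with the eGFP covariate. The median was 0.21, beside 0.01 for all genes and -0.08 at cage activity (-0.12 without cKO cage female replicate 3). Serpinh1, which encodes the collagen chaperone HSP47, ran from 98.2 to 131 CPM (median 114) in the WT runners and from 136 to 187 CPM (median 144) in the cKO runners, with no overlap (0.43 ± 0.14). Bmp1, the protease that trims the procollagen C-terminus, ran from 49.5 to 84.2 CPM (median 65.6) in the WT runners and from 71.2 to 118 CPM (median 89.5) in the cKO runners (0.45 ± 0.15). The type V chains that start fibrils followed, Col5a3 with medians of 141 against 190.4 CPM (0.55 ± 0.20) and Col5a1 with 389.8 against 559 CPM (0.55 ± 0.22). With the eGFP covariate the differences of Serpinh1, Bmp1, Col5a3 and Col5a1 were 0.49, 0.34, 0.54 and 0.43. The abundant chains, named after their values were seen, had wide groups, with 2075 against 2824 CPM for Col3a1 (0.54 ± 0.27) and 5433 against 5792 CPM for Col1a1 (0.34 ± 0.32). Col1a1 was lowest in WT female replicate 2 (2744 CPM) and highest in cKO male replicate 2 (9453 CPM).

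Elastic fibre and matricellular genes had a like pattern, with 22 of 28 above 0, 5 higher and 0 lower at an unadjusted p under 0.05, and a median of 0.19 (0.02 at cage activity, and -0.02 without cKO cage female replicate 3). Elastin (Eln) ran from 24.2 to 36.5 CPM (median 30.9) in the WT runners and from 29.0 to 80.1 CPM (median 54.7) in the cKO runners (0.86 ± 0.29). The microfibril glycoprotein Emilin1 stood at 18.2 against 26.5 CPM (0.64 ± 0.21) and periostin, Postn, at 55.8 against 74.8 CPM (0.59 ± 0.23). The groups overlapped in each. The membrane protease Adam15 stood at 44.9 against 59.4 CPM (0.45 ± 0.13), and 4 of 32 matrix proteases and inhibitors were higher and 0 lower at that p. The 5 elastic fibre genes became 3 without cKO male replicate 2, 2 without WT female replicate 3 and 0 with the eGFP covariate. Without cKO male replicate 2 the collagen median was 0.18 and the elastic fibre median 0.18. With muscle content as a covariate they were 0.12 and 0.13. In CPM one class of RNA is counted against the rest, so these values and the muscle values that follow are not independent of each other. In TGF-beta and BMP signalling, 6 of 36 genes were higher and 1 lower at an unadjusted p under 0.05, among them the BMP antagonist chordin (Chrd, 8.79 against 12.7 CPM, 0.59 ± 0.17) and, on the lower side, the growth factor Gdf6, which was near its floor (0.732 against 0.185 CPM, -1.58 ± 0.59).

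Muscle genes were lower in cKO runners in both lists. All 30 fast-fibre genes and all 15 slow-fibre genes were below 0, beside 48.7% of all genes, with medians of -0.68 and -0.54. Of these, 10 fast genes and 1 slow gene had an unadjusted p under 0.05, beside 4.83% of all genes. The count of fast genes was 0 lower and 2 higher without WT male replicate 1 (26 of 30 below 0), 1 lower without cKO male replicate 2 (29 of 30 below 0), 1 without WT female replicate 3, 2 without cKO female replicate 4 or cKO male replicate 3, and 5 without WT female replicate 2. It was 22 without cKO female replicate 3 and 19 without WT male replicate 3. At cage activity the medians were 0.10 and 0.10, with 24 of 30 fast and 13 of 15 slow genes above 0, and 0.21 and 0.17 without cKO cage female replicate 3. Ryr1, the calcium release channel of muscle, ran from 1243 to 5029 CPM (median 2410.0) in the WT runners and from 389 to 1997 CPM (median 1204) in the cKO runners (-1.13 ± 0.44). Creatine kinase, Ckm, ran from 832 to 3956 CPM (median 1390.3) in the WT runners and from 358 to 1619.6 CPM (median 1097) in the cKO runners (-0.77 ± 0.34). The slow troponin Tnnt1 ran from 1100.2 to 2911 CPM (median 1897) in the WT runners and from 234 to 2227 CPM (median 923) in the cKO runners (-0.78 ± 0.37). In each, cKO male replicate 2 held the lowest value of the 12, and the groups overlapped. Fewer muscle cells in a sample and less RNA per muscle cell cannot be told apart in a whole tissue.

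How much muscle a sample held differed widely within each genotype. Myh4, the myosin of the fastest fibres, was chosen after its values were seen. It stood at 14884 CPM in WT male replicate 1 and 4469.8 CPM in cKO female replicate 3, and at 2.01 to 380 CPM in the other 10 runners. Leaving out WT male replicate 1 brought the fast-fibre median to -0.32, and leaving out cKO male replicate 2 brought it to -0.41. The slow-fibre median was -0.32 without cKO male replicate 2 and -0.81 without cKO female replicate 3. The fast-fibre median was -0.34 in females and -1.11 in males, and the slow-fibre median -0.35 and -0.83. With muscle content, which is made from these same genes, as a covariate the fast and slow medians were -0.13 and -0.28.

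Mitochondrial genes followed the muscle genes in direction. Of 77 nuclear genes of oxidative phosphorylation 74 were below 0 and 17 had an unadjusted p under 0.05 (0 higher), beside 4.83% of all genes, with a median of -0.33 (0.12 at cage activity). That count was 1 without cKO male replicate 2, 1 without WT male replicate 1, 1 without WT female replicate 3 and 5 without cKO female replicate 4, and 48 without cKO female replicate 3 and 42 without WT male replicate 3. The median was -0.22 without cKO male replicate 2. All 13 mRNAs of mitochondrial DNA were below 0 (median -0.41, 2 at that p), as were all 20 genes of the tricarboxylic acid cycle (median -0.44, 6 at that p, and 0.16 at cage activity, where all 20 were above 0). Without cKO male replicate 2 the median of the mitochondrial mRNAs was -0.18 (12 of 13 below 0) and that of the cycle -0.29, with 1 gene at that p. The cycle's count was 0 without WT female replicate 3 and 18 without WT male replicate 3. Cox5a, a cytochrome oxidase subunit, ran from 52.4 to 116 CPM (median 79.5) in the WT runners and from 16.3 to 70.0 CPM (median 58.2) in the cKO runners (-0.74 ± 0.26). Ndufa8 of complex I ran from 41.5 to 71.3 CPM (median 51.9) in the WT runners and from 33.0 to 51.7 CPM (median 41.1) in the cKO runners (-0.39 ± 0.16). Malate dehydrogenase, Mdh2, stood at 325 against 259 CPM (-0.52 ± 0.21) and the pyruvate dehydrogenase subunit Pdhb at 114 against 95.5 CPM (-0.51 ± 0.20). Mitochondrially encoded mt-Nd4l (32.8 against 19.8 CPM, -0.64 ± 0.30) and mt-Co2 (171 against 96.5 CPM, -0.59 ± 0.29) were lower to a like degree.

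Of 25 genes for mitochondrial biogenesis and dynamics, 20 were below 0 and 4 had an unadjusted p under 0.05 (0 higher). They included the fusion protein Mfn2 (324 against 215 CPM, -0.66 ± 0.27) and the mitophagy kinase Pink1 (357 against 241 CPM, -0.57 ± 0.22). Fatty acid oxidation had 29 of 34 below 0 (median -0.27), with 4 lower at that p, such as Eci2 (32.7 against 27.2 CPM, -0.30 ± 0.10), and 1 higher. The exception was Cpt1a, the non-muscle form of the enzyme that lets fatty acids into mitochondria, which ran from 16.1 to 29.3 CPM (median 25.1) in the WT runners and from 28.5 to 36.7 CPM (median 32.6) in the cKO runners (0.44 ± 0.15). Without cKO male replicate 2 the medians of these lists were -0.19 and -0.17, with 2 and 1 genes lower at that p. With muscle content as a covariate the median was -0.10 for oxidative phosphorylation, -0.13 for the tricarboxylic acid cycle and -0.07 for the mitochondrial mRNAs. The differences of mt-Nd4l and mt-Co2 were -0.50 and -0.47 with it. The part of muscle content in these lists was not tested. Glycolysis and glycogen genes had 24 of 31 below 0 (median -0.39, -0.23 without cKO male replicate 2 and -0.21 without WT male replicate 1).

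**Figure D3:**
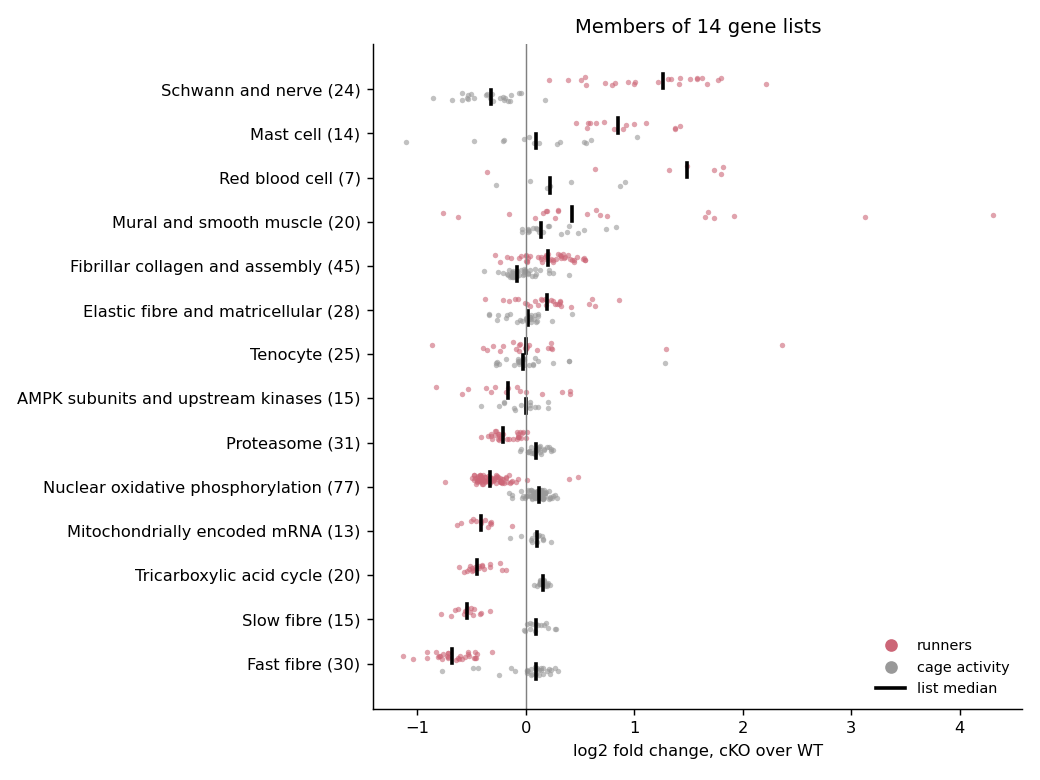
Log2 fold change (cKO over WT, horizontal axis) of each tested member of 14 gene lists, in runners (red) and at cage activity (grey), with a black bar at each list's median and the number of genes in parentheses. Fast-fibre and tricarboxylic acid cycle genes lie below 0 in runners (medians -0.68 and -0.44) and mostly above 0 at cage activity (medians 0.10 and 0.16), and Schwann and mast cell genes lie above 0 in runners (medians 1.27 and 0.85).

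Most protein quality-control genes stood lower by small amounts, and no more of them than of all genes had an unadjusted p under 0.05 (4.83% of all genes, lower). Of 31 proteasome genes 30 were below 0 (median -0.21), though 1 had an unadjusted p under 0.05, the regulatory subunit Psmd2 (142 against 106 CPM, -0.35 ± 0.17). Of 24 heat shock proteins and chaperones 18 were below 0 (median -0.20) and again 1 passed that level, Hsp90ab1 (854 against 595 CPM, -0.47 ± 0.21). Without cKO male replicate 2 the 2 medians were -0.12 and -0.06, with 0 genes at that p. Lipid synthesis leaned the other way. Of 30 genes of cholesterol and fatty acid synthesis 21 were above 0, with 5 higher and 0 lower at an unadjusted p under 0.05 and a median of 0.16 (1 higher and a median of 0.12 without cKO male replicate 2). Srebf2, which drives cholesterol synthesis, stood at 44.1 against 57.4 CPM (0.34 ± 0.12), and Acly, which supplies cytosolic acetyl-CoA, at 48.3 against 61.2 CPM (0.46 ± 0.19). Fatty acid synthase, Fasn, named after its values were seen, ran from 259 to 473 CPM (median 352) in the WT runners and from 359.9 to 1637 CPM (median 514) in the cKO runners (0.94 ± 0.45), with its highest value in cKO male replicate 2, the library with the largest share of adipocyte genes (1.01%, beside 0.274% to 0.535% in the other 11).

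Genes of Schwann cells, the glia that wrap peripheral axons, were higher in cKO runners. All 24 tested were above 0, beside 51.3% of all genes, and 10 had an unadjusted p under 0.05, beside 6.52%. The median was 1.27, beside -0.32 at cage activity (-0.51 without cKO cage female replicate 3). Cnp, an enzyme of myelin, ran from 4.66 to 9.04 CPM (median 7.49) in the WT runners and from 5.77 to 40.4 CPM (median 14.7) in the cKO runners (1.32 ± 0.36). The myelin protein Pmp22 stood at 78.3 against 132 CPM (1.01 ± 0.36). Sox10, the transcription factor of the lineage, also named after its values were seen, stood at 1.99 against 4.62 CPM (1.42 ± 0.62). The list's share of counts was 0.0121% to 0.0630% (median 0.0258%) in WT runners and 0.0196% to 0.248% (median 0.0661%) in cKO runners. The share lay above the WT range in cKO female replicate 4 and cKO males 1 and 2 and within it in the other 3 cKO runners. The 10 genes became 3 without cKO female replicate 4, 4 without WT female replicate 1 or cKO male replicate 1, 5 without WT female replicate 3 or WT male replicate 1, 6 without WT female replicate 2 or cKO male replicate 3, 17 without cKO female replicate 3 and 19 without WT male replicate 3. Without cKO female replicate 4 the median was 0.81.

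Smooth muscle and pericyte genes split within their list. Of 20 genes 17 were above 0, with 9 higher and 2 lower at an unadjusted p under 0.05, beside 6.52% and 4.83% of all genes, and a median of 0.43. The median was 0.27 without cKO male replicate 1. At cage activity 18 of the 20 were above 0, with a median of 0.14 (0.21 without cKO cage female replicate 3). The contractile genes were far apart between libraries. Myl9, a myosin light chain of smooth muscle, ran from 5.21 to 12.9 CPM (median 6.49) in the WT runners and from 6.14 to 61.7 CPM (median 21.5) in the cKO runners (1.92 ± 0.48). Tagln (transgelin), an actin-binding protein, stood at 17.9 against 44.5 CPM (1.66 ± 0.50). Acta2, smooth muscle actin, ran from 18.1 to 67.9 CPM (median 32.3) in the WT runners and from 31.7 to 258 CPM (median 84.8) in the cKO runners (1.73 ± 0.53). With the eGFP covariate the differences of Myl9, Tagln and Acta2 were 1.12, 0.83 and 0.88. Actg2, the enteric smooth muscle actin, was at 0 to 26 counts in WT runners and 4 to 562 in cKO runners. The ATP-gated channel P2rx1 is not in the list and was named because a fit without a filter called it. P2rx1 was at 0 to 18 counts in WT runners and 7 to 310 in cKO runners. Acta2 was above the WT range in cKO female replicate 4 (258 CPM) and cKO males 1 and 2 (199 and 115 CPM), while the other 3 cKO runners lay within it. Desmin (Des), which skeletal muscle also makes and which was named after its values were seen, was lower (2346 against 1366 CPM, -0.76 ± 0.36). The list's summed share was 0.321% to 0.430% (median 0.393%) in WT and 0.273% to 0.405% (median 0.369%) in cKO. Without Des it was 0.133% to 0.176% in WT runners and 0.143% to 0.265% in cKO runners, again above the WT range in cKO female replicate 4 and cKO males 1 and 2. Of the listed genes found in the files, 19 of 20 for smooth muscle, 22 of 25 for Schwann cells and 9 of 15 for mast cells had a count in all 12 runners. The part of these cell types in the values of other genes was not tested. The endothelial marker Vwf, the carrier of clotting factor VIII, stood at 49.8 against 74.9 CPM (0.88 ± 0.29), among 22 endothelial genes with a median of 0.11.

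Mast cell genes were higher too. All 14 tested were above 0 and 6 had an unadjusted p under 0.05, beside 6.52% of all genes, with a median of 0.85 (0.10 at cage activity, and -0.02 without cKO cage female replicate 3). Without cKO male replicate 2 the 6 became 2, and without WT female replicate 1 or WT male replicate 1 they became 4. The proteases Cma1 (2.55 against 7.10 CPM, 1.38 ± 0.50), Tpsb2 (1.92 against 5.82 CPM, 1.42 ± 0.55) and Mcpt4 (3.38 against 6.71 CPM, 1.11 ± 0.44) and the transcription factor Gata2 (5.75 against 9.25 CPM, 0.56 ± 0.18) had the smallest p of the list. Levels were low, at 0.00151% to 0.00473% (median 0.00287%) of counts in WT and 0.00344% to 0.0114% (median 0.00516%) in cKO. The share lay above the WT range in cKO female replicate 4 and cKO males 2 and 3 and within it in the other 3 cKO runners. Haemoglobin was higher in cKO as well, with medians of 7.71 against 18.0 CPM for Hba-a1 (1.73 ± 0.67), 18.1 against 40.8 CPM for Hbb-bs (1.49 ± 0.63) and 1.72 against 5.34 CPM for Hbb-bt (1.80 ± 0.66), genes with near-identical copies among which reads can be split. In 7 red blood cell genes the median was 1.49, with 4 at an unadjusted p under 0.05, and it was 0.96, with 0 at that p, without cKO male replicate 2. Of 22 macrophage genes 18 were above 0, with 1 higher at an unadjusted p under 0.05 and a median of 0.19, and the median at cage activity was also 0.19 (0.09 without cKO cage female replicate 3).

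Skin and hair genes were concentrated in 1 library. Tchh, trichohyalin of the hair follicle, stood at 250.3 CPM in cKO male replicate 2 and at 1.10 to 5.66 CPM in the other 11 runners, and its difference of 3.91 ± 0.97 was 0.66 without that library. The hair keratin Krt71 had 2445 counts there and 0 to 2 in each WT runner, and Krt27 had 1284 there and 0 to 4 in each WT runner. The keratinocyte median of 1.65 over 7 genes was -0.44 without it. The same library had the lowest muscle share (2.44%).

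**Figure D4:**
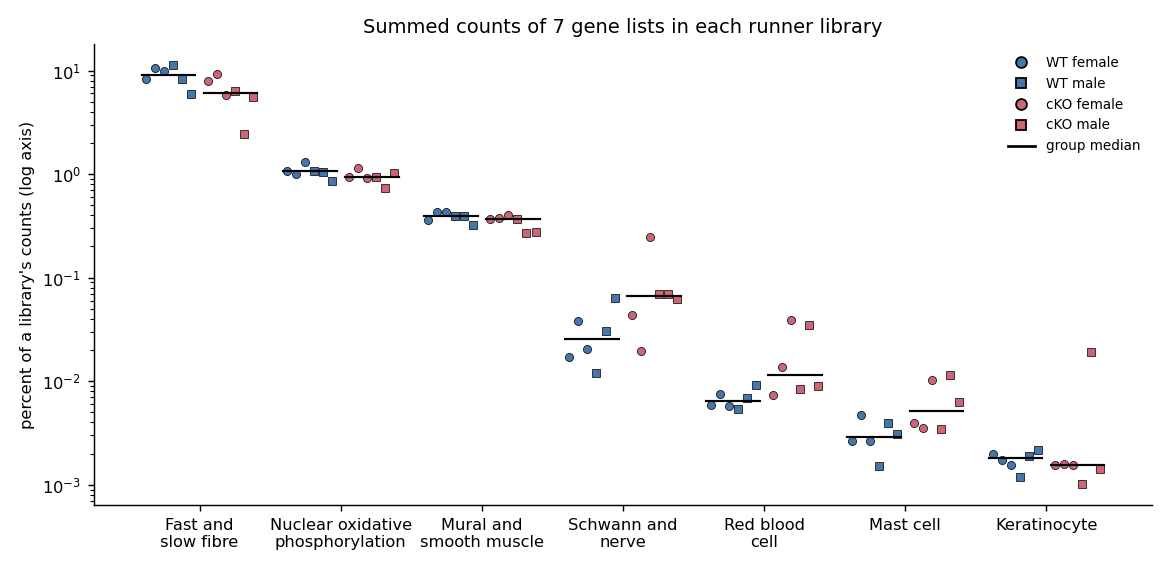
Share of each runner library's counts (percent, log axis) in 7 gene lists, WT in blue and cKO in red, females as circles and males as squares, with a black bar at each group's median. Muscle fibre genes took a median of 9.08% in WT and 6.05% in cKO, with cKO male replicate 2 lowest at 2.44%, and the same library stands alone for keratinocyte genes.

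A fit without a filter on low values called 282 of 42619 genes, 181 higher and 101 lower, and 241 of them were also among the 19155 genes tested above, where none was called. In 132 of the 282 the most counts among runners were in cKO male replicate 2, in 54 in WT female replicate 2, in 47 in cKO female replicate 4 and in 30 in WT male replicate 1. Of the 20 genes named next, 5 had over 50% of their runner counts in 1 library and 15 did not. The 10 higher genes with the smallest p were Bop1, Scx, Tchh, Krt71, Myl9, Actg2, P2rx1, Krt27, Acta2 and Tagln. The 10 lower were the muscle genes Myoz3, Actc1, Sln and Myo18b, the potassium channel Kcnj11, H19, Amot, Abcb4, Lynx1 and Vmn2r76. With the filter, Myoz3, which binds calcineurin at the Z-disc, ran from 23.1 to 79.0 CPM (median 30.8) in the WT runners and from 7.90 to 23.4 CPM (median 17.3) in the cKO runners (-1.08 ± 0.35). Actc1 stood at 13.2 against 8.93 CPM (-1.49 ± 0.69, 0.47 in females, -3.32 in males, and -0.22 without WT male replicate 1), Sln (sarcolipin) at 68.3 against 39.1 CPM (-0.91 ± 0.34), Kcnj11 at 43.7 against 22.8 CPM (-0.88 ± 0.30) and Myo18b at 635 against 287 CPM (-1.05 ± 0.42). Amot (angiomotin), Abcb4 and Lynx1 differed by -0.88 ± 0.33, -0.87 ± 0.33 and -0.83 ± 0.29. With muscle content as a covariate these 3 were at -0.45, -0.42 and -0.45. With it Myoz3 was at -0.55, Actc1 at -0.26, Sln at -0.75, Kcnj11 at -0.52 and Myo18b at -0.56. The vomeronasal receptor Vmn2r76, of a large gene family whose reads can be shared, had 4 to 108 counts in WT and 0 to 4 in cKO runners.

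**Figure D5:**
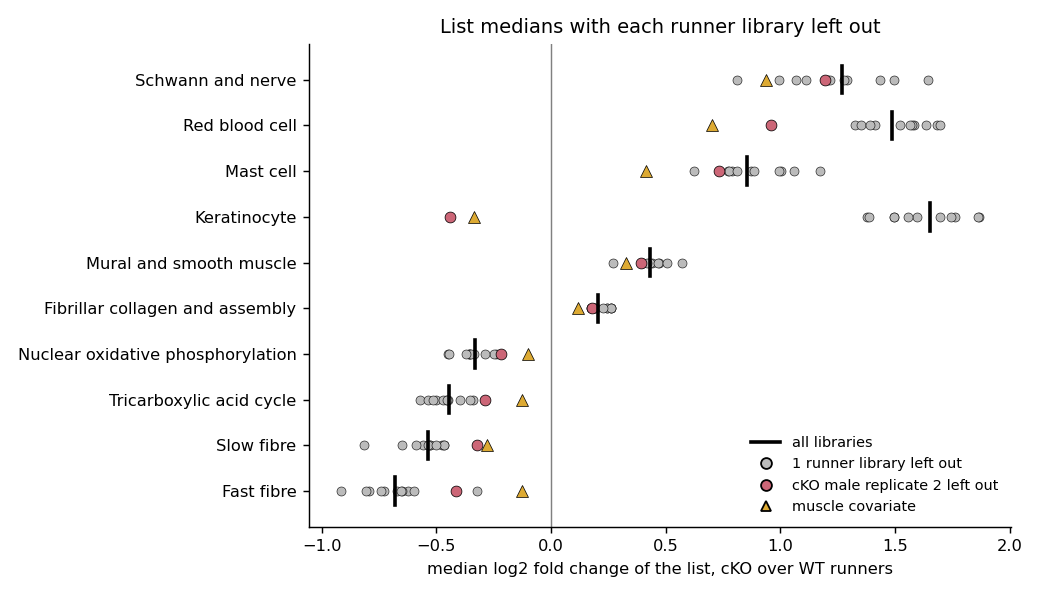
Median log2 fold change (cKO over WT runners, horizontal axis) of 10 gene lists with all libraries (black bar), with 1 runner library left out (circles, red for cKO male replicate 2) and with a muscle covariate (triangles). The keratinocyte median moves from 1.65 to -0.44 without cKO male replicate 2, and the fast-fibre median moves from -0.68 to -0.13 with the covariate.

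Whether the genotype difference in runners departed from that at cage activity was tested as an interaction over all 25 libraries. No gene had an adjusted p under 0.05 in edgeR (0%), with 1377 (7.19%) at an unadjusted p under 0.05. Thrb had the smallest p of all (0.000151, edgeR adjusted p = 0.672), with a difference of -0.51 ± 0.13 in runners and 0.27 ± 0.12 at cage activity. Efcc1 followed with 1.15 ± 0.28 and -0.45 ± 0.27, and Meg3 had 0.61 ± 0.15 and -0.22 ± 0.14. Without cKO cage female replicate 3 the interaction also had 0 called genes, 1640 at an unadjusted p under 0.05 and a smallest edgeR adjusted p of 0.580. Nothing was therefore shown to be particular to runners. The genotype difference was also compared between the sexes. In the interaction with sex 0 genes passed in edgeR (0%) and 822 (4.29%) had an unadjusted p under 0.05. Of the 99 genes followed through the alternatives, 97 had the same sign in females and males. Most of them were named for a small p in the fit of both sexes together, which favours a shared sign. The 97 is therefore no test of agreement between the sexes.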

How the data were processed

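RNA was measured in Achilles tendons. Per the labels' protocols, total RNA was extracted with TRIzol and a spin column with DNase on the column. Per the submitters' processing notes, FastQC 0.11.8, cutadapt 2.3, STAR 2.7.8a, RSEM 1.3.3 and the build GRCm38 (mm10) are listed. The annotation release and the strand are not given in the sources used here. The authors deposited expected counts, all of them whole numbers, and FPKM values per gene, for 55487 genes and 4 reporter entries. In total 15397565 to 32942246 counts per runner library were used, so 3 counts correspond to 0.0695 to 0.155 CPM, a limit that covers counting error only.

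The expected counts were tested with edgeR 4.0.16 (R 4.3.3): filterByExpr, TMM scaling, quasi-likelihood F-test, 4 means of genotype and activity plus sex over all 25 libraries (20 residual degrees of freedom), and Benjamini-Hochberg adjustment over 19155 genes. Calls required an adjusted p under 0.05. Gene lists have no test. Their counts are to be read beside the shares of all genes given in the text (6.52% higher and 4.83% lower at an unadjusted p under 0.05) and their medians beside 0.01 for all genes. CPM values, those of Cre and eGFP included, use the TMM-scaled library sizes. Shares are percentages of a library's counts. Gene positions come from the GENCODE annotation of GRCm38.

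Genes were named by a rule: Prkaa1 and Prkaa2, the 15 higher and 15 lower genes of smallest p among those whose mean log2 CPM was 1 or more, at most 10 genes each way called in an alternative, and up to 4 members of each list with the smallest p, without predicted genes. Not all of them are described, and some are not reported here. Myh4, Fasn, Des, Col1a1, Col3a1 and Sox10 fall outside it. The samples compared and the gene lists were chosen with earlier results of these data known.

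Alternatives were RLE scaling, no filter, a filter of 1 CPM in 6 libraries, robust spread, DESeq2 1.42.0, limma-voom (limma 3.58.1), limma on the deposited FPKM as log2(FPKM + 1) and log2(FPKM + 0.1), the 12 runners alone, no sex term, muscle and eGFP covariates, a replicate block and leaving out libraries. The fit was also run on simulated counts, and the outcome is not reported here.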

Additional observations from a re-analysis of the deposited data

Results flagged for a closer look

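In 218 sets of 6 runner libraries, 1 for each described gene or summed list in each genotype, the highest or lowest library was checked for a gap from the nearest other library that, as a part of the whole range on a log2 scale, exceeds Dixon's critical value. The gap was that wide in 19 sets, where chance gives about 1 in 20. No explanation was tested for any of them.

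In WT male replicate 2, Scx (105 CPM) and Bop1 (152 CPM) stood far above the other WT runners. The same library had 113 CPM of eGFP, a reporter entry outside the gene comparison that was at 0 in the other 5 WT runners.

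In cKO male replicate 2, trichohyalin (Tchh, 250.3 CPM), collagen Col3a1 (6399 CPM) and the keratinocyte genes (0.0192% of counts) were far above the other cKO runners. H19 (57.2 CPM), the cytochrome oxidase subunit Cox5a (16.3 CPM), the potassium channel Kcnj11 (6.58 CPM), sarcolipin (Sln, 6.44 CPM) and the fast-fibre genes (1.66% of counts) were far below them.

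In WT male replicate 1, the muscle genes Myh4 (14884 CPM), Myoz3 (79.0 CPM) and Actc1 (155 CPM) were far above the other WT runners. In WT male replicate 3, Kcnj11 was far below them (23.0 CPM). In WT female replicate 2, Commd6 (11.5 CPM) and haemoglobin Hbb-bt (4.12 CPM) were far above, and Magi2 (2.69 CPM) and Col1a1 (2744 CPM) far below, the other WT runners. In cKO female replicate 3, Dand5 (7.05 CPM) was far above the other cKO runners.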

How the results depend on the processing

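The count of 0 genes called stayed 0 under RLE scaling, the 1 CPM filter, robust spread, DESeq2, limma-voom, log2(FPKM + 0.1), the 12 runners alone, no sex term and both covariates. It was 282 with no filter, 1 on log2(FPKM + 1) (Bop1) and 1 with the replicate block (Bop1), and 0 to 2 when 1 library was left out. The block joins libraries of one sex and number. The correlation of their deviations ran from -0.03 to 0.21 and 3 of 5 pairs matched best by number, so the numbers were not taken as a pairing. At an unadjusted p under 0.05, the 1248 higher genes became 2029 with no filter, 725 with the muscle covariate, 284 with the eGFP covariate, 730 without 3 libraries and 688 to 1595 with 1 library left out. The 925 lower genes became 3404, 565, 120, 611 and 411 to 1543 in the same settings, 1495 with limma-voom, 465 on log2(FPKM + 1) and 433 on log2(FPKM + 0.1), where 1831 were higher and the median of all genes was 0.19. With no filter 65 genes were called for the interaction with running and 146 for that with sex. Leaving out 3 libraries (WT female 2, WT male 3, cKO male 2), 4 (also WT male 2) or cKO cage female 3 (1215 higher and 904 lower) was chosen after seeing the data.

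Among list medians, Keratinocyte (1.65) became -0.49 with limma-voom, 0.27 on log2(FPKM + 1), 0.32 on log2(FPKM + 0.1), -0.33 with the muscle covariate, 0.0018 with the replicate block, -0.48 without 3 libraries, -0.54 without 4 and -0.44 to 1.87 with 1 left out. Mast cell (0.85) became 1.62 without 4 libraries and 0.62 to 1.17 with 1 left out, and Red blood cell 0.70 with the muscle covariate. The log2 ratio of the Mural and smooth muscle shares moved from -0.09 to 0.25 without Des. Of 2869 fold changes of 99 genes, 2805 kept direction and call and 54 passed the threshold. In 3 genes the sign turned: Prkaa1 was 0.037 without 4 libraries (-0.40 to -0.18 with 1 left out), Thrb was 0.074 and 0.078 on the FPKM scales, and Myh4 was 1.40 (limma-voom), 1.60 and 1.96 (FPKM), 0.68 (runners alone), 3.59 (muscle covariate), 4.63 (replicate block) and -3.33 to 6.04 with 1 left out (6.04 without WT male 1). The cause of these changes was not tested. Of the 282 genes called with no filter, 241 were also tested with it, where 0 were called. At 3 counts a gene stood at 0.0695 to 0.155 CPM, which limits statements on Actg2, P2rx1, Gdf6 and Vmn2r76.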

Other observations

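Of 35 genes of autophagy and mTORC1 signalling, 15 were above 0, with 2 higher and 6 lower at an unadjusted p under 0.05 (median -0.07). Of 28 antioxidant and glyoxalase genes 10 were above 0, with 0 higher and 4 lower (median -0.07). Of 20 ubiquitin ligases of muscle atrophy 3 were above 0 (median -0.18), Siah1a higher and Siah2 lower at that level. The 20 circadian clock genes split evenly, 10 and 10, around a median of -0.02. Of 28 interferon-stimulated genes 22 were above 0 and 0 had an unadjusted p under 0.05 in either direction (median 0.19). Of 22 immediate early genes 4 were higher and 0 lower at that level (median 0.02). Of 13 thyroid hormone genes Thrb alone reached it (median -0.08).

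Of 75 cytosolic ribosomal proteins 57 were above 0, with 1 higher and 1 lower at an unadjusted p under 0.05. Their median was 0.08, beside 0.07 at cage activity (0.04 without cKO cage female replicate 3). Of 30 ribosome biogenesis genes, Bop1 among them, 11 were above 0, with 3 higher and 1 lower (median -0.05), and of 26 proliferation genes 16 were above 0, with 1 higher and 1 lower (median 0.10). Among other cell types, adipocyte genes had 13 of 15 above 0 and 0 at that level either way (median 0.28). Genes of sheath and progenitor fibroblasts had 11 of 18 above 0 (median 0.05), cartilage 7 of 13 (median 0.02), bone 3 of 8 (median -0.06) and lymphocytes 3 of 5 (median 0.07). Of 12 neutrophil genes 1 was tested (0.36).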
